A study of Homo sapiens with 10 samples.

Results

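The 4 loci described here hold the genes that are most often read as targets of the co-activators YAP and TAZ: CTGF, CYR61, ANKRD1 and AMOTL2. Binding of 5 transcription factors was taken from ChIP-seq peak lists, and a peak was a member if its summit fell in chr6:132220000-132320000 (CTGF), chr1:86000000-86100000 (CYR61), chr10:92630000-92730000 (ANKRD1) or chr3:134060000-134130000 (AMOTL2), in hg19 coordinates. The windows held 299 of 879550 peaks. Each summit was taken with 150 bp on each side, and windows that overlapped by at least 1 bp were joined into a site. This gave 87 of 248897 sites, of which 25 lay at CTGF, 29 at CYR61, 16 at ANKRD1 and 17 at AMOTL2. The windows were set by position and not by level.

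YAP and TAZ are the effectors of the Hippo pathway. They do not bind DNA themselves, and TEAD proteins are their best known partners on DNA. When the pathway kinases are inactive, YAP and TAZ enter the nucleus and drive genes for growth and for contact with the matrix. CTGF (now CCN2) and CYR61 (now CCN1) encode secreted matricellular proteins of the CCN family. ANKRD1 encodes an ankyrin repeat protein of muscle and of cells under mechanical load. AMOTL2 encodes an angiomotin-like scaffold that binds YAP and holds it back, so that it takes part in negative feedback. FOS, JUN and JUNB are subunits of AP-1, which binds DNA as a dimer, STAT3 is the transcription factor downstream of IL-6 family cytokines, and NFKB1 encodes the p105 and p50 proteins of NF-κB. AP-1 and TEAD motifs are often found in the same enhancers.

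The samples were MCF10A-ER-Src cells, a derivative of the non-transformed human breast epithelial line MCF10A that carries the oncoprotein v-Src joined to a ligand-binding domain of the estrogen receptor. Every sample carried this fusion. Non-transformed cells received ethanol, and transformed cells received 1 μM 4-hydroxy-tamoxifen, which turns the fusion on, for 12 h. Each of the 5 factors had 1 library in each state, so that the 10 groups have no replicates, and no difference between states could be tested. Ethanol treatment was 36 h by the names of the libraries. The STAT3 antibody has the catalogue number that the study's methods list for the form phosphorylated on tyrosine.

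Read depth differed between the libraries and bears on every count below. Between 4837474 and 22082403 filtered reads stood behind a list, and the lists held 13252 to 164605 peaks. The NFKB1 library of transformed cells had 9674390 reads against 4837474 in its partner, the ratio of transformed to non-transformed reads was 1.72 for JUNB, 1.19 for FOS and 1.16 for JUN, and only the STAT3 library of transformed cells was the shallower of its pair, at 0.821. Repeat reads that the authors removed made up 13.0% to 49.9% of a library. With non-transformed cells first, they were 49.9% and 31.1% for JUNB and 46.7% and 22.9% for STAT3. For FOS they were 18.5% and 20.7%, for JUN 23.2% and 13.0%, and for NFKB1 14.9% and 14.1%. By the library names, the JUNB pair joins replicate C with A and the STAT3 pair B1 with A, while the other pairs share a letter. The part of repeat reads and of unmatched replicates in the differences between states was not tested. A site without a peak is a site below the calling threshold of that list, and the lowest pileup of a list was 4 or 5 reads.

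The promoters of these genes are shown for the TEAD motif, since TEAD proteins are the best known partners of YAP and TAZ on DNA. RefSeq promoters (GRCh38.p14) were found for 3 of the 4 genes, CTGF, ANKRD1 and AMOTL2, the last with a pair of starts. The 250 bases before the start are printed below, 5′ to 3′ along the gene, with matches to TEAD (GGAATG) and AP-1 (TGANTCA), on either strand, in capitals. The CTGF stretch is chr6:131951373-131951622 on the minus strand, that of ANKRD1 is chr10:90921088-90921337 on the minus strand, and that of the second AMOTL2 start is chr3:134374448-134374697 on the minus strand.
CTGF: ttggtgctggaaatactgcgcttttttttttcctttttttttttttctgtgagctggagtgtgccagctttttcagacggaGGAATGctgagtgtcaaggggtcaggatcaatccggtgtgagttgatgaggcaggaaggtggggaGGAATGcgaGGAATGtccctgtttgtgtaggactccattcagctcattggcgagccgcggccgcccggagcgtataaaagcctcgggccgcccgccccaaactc
ANKRD1: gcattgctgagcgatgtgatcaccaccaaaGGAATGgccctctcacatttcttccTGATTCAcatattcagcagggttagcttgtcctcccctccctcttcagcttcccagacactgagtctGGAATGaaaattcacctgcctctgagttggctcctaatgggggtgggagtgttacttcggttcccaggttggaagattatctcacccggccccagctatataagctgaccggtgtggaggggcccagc
AMOTL2 start 2: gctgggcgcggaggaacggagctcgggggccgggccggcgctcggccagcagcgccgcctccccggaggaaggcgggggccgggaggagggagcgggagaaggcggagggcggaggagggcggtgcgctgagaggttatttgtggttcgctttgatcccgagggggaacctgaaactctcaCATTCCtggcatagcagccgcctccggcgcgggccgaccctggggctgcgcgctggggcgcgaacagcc

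CTGF held 3 TEAD matches, which began 169, 104 and 95 bases before the start. ANKRD1 held 2, at 220 and 128 bases, with an AP-1 match of the letters TGATTCA between them at 195 bases. The second AMOTL2 start had 1 TEAD match on the opposite strand at 69 bases, and the first AMOTL2 start had 0. At least 1 TEAD match was found in 14.0% of the 35116 RefSeq promoters of 300 bases, at least 2 in 1.37% and at least 3 in 0.128%. An AP-1 match was found in 7.71%. The STAT motif TTCNNNGAA (7.66% of promoters) had 0 matches in the 4 member promoters, and the NF-κB motif (3 G and 2 C with 5 bases of any kind between them) was in all 4, with 1 match in CTGF, 2 in ANKRD1, 3 at the first AMOTL2 start and 2 at the second. It was also in 58.7% of all promoters. In CTGF its match began at the same base as the TEAD match at 95 bases, and in ANKRD1 at the same base as the TEAD match at 220 bases. A match is a match of letters only. Whether a peak covered these stretches was not tested, because the lists are on hg19 and the promoters on GRCh38.

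The 4 windows were rich in binding sites. At CYR61, 0.863% of 26878 tiles of 100 kb had as many sites or more, and at CTGF 2.06%. ANKRD1 was nearer to the ordinary, with 13.4% of the tiles at or above its 16 sites, beside a median of 8 sites a tile. For AMOTL2 the share was 3.54% of 37535 tiles of 70 kb, where the median was 6. The loci also differed in the number of sites that held all 5 factors in transformed cells. CYR61 and AMOTL2 had 5 such sites each, and CTGF and ANKRD1 had 1 each. As many were found in 6.96% of tiles for CYR61, 3.59% for AMOTL2, and 55.8% for CTGF and for ANKRD1. AMOTL2 thus had 17 sites with 5 of them complete, and CTGF had 25 sites with 1 complete.

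**Figure D1:**
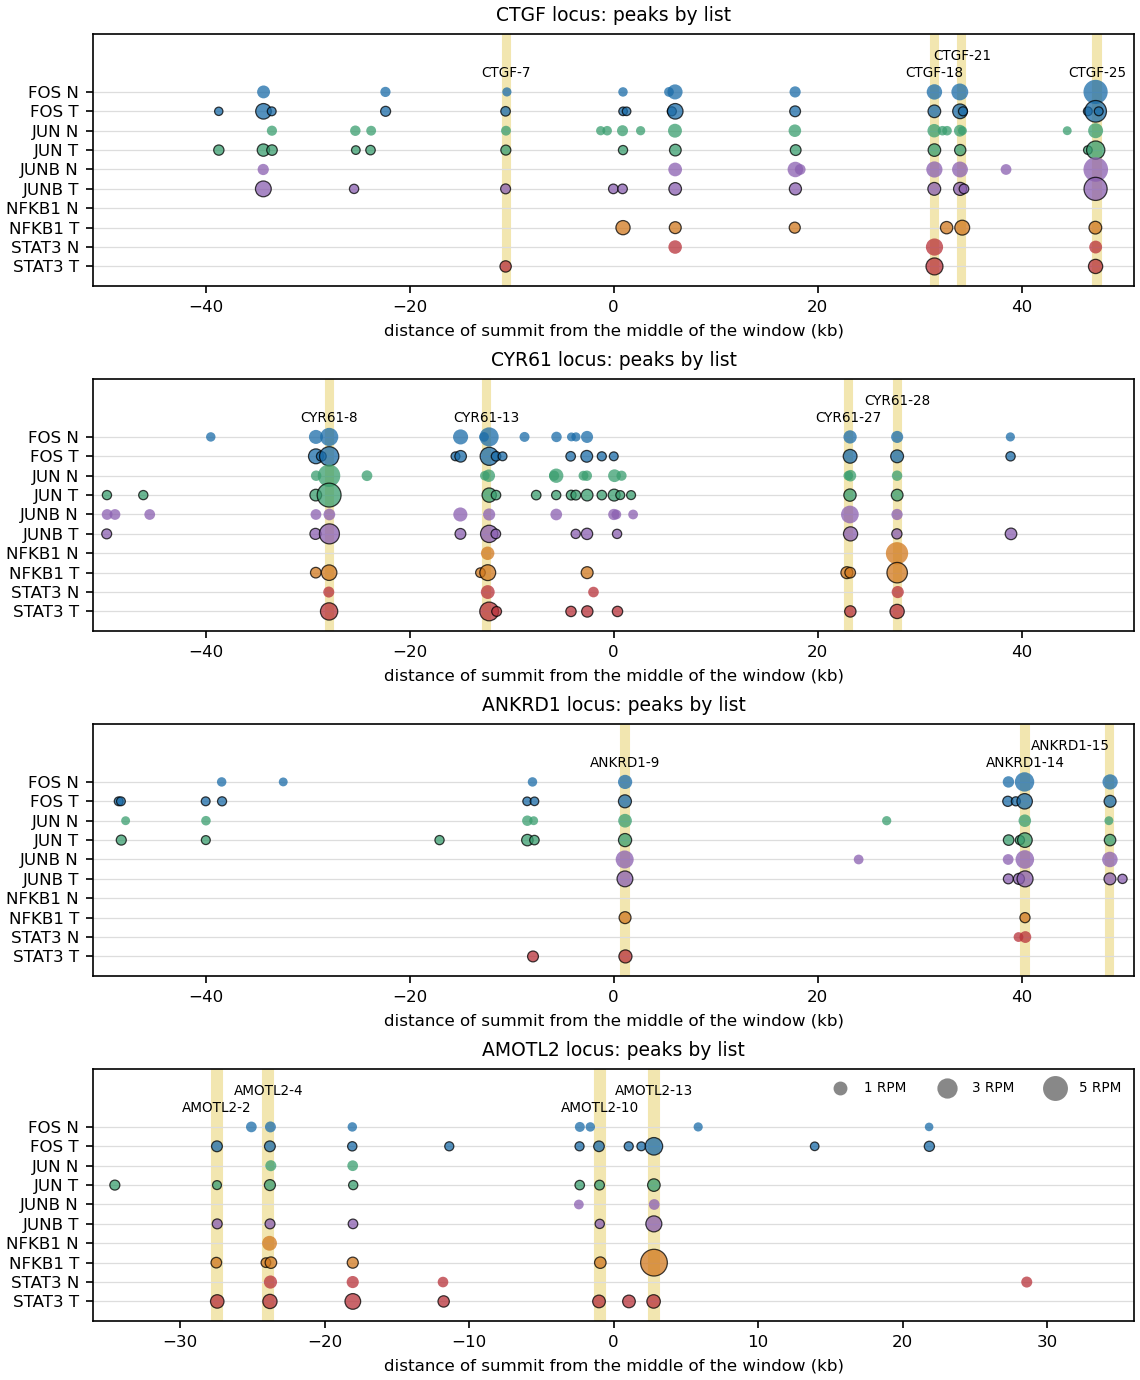
Peaks of each list at the 4 loci. The horizontal axis is the distance of the summit from the middle of the window in kb, each row is a list (N, non-transformed; T, transformed, outlined in black), the area of a circle grows with the pileup per 1000000 filtered reads (RPM), and yellow bands mark the named sites. The 3 NFKB1 peaks of non-transformed cells stand at CYR61 (2) and AMOTL2 (1), and the 22 of transformed cells are spread over all 4 loci.

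Over all 4 loci, 12 of 87 members (14.8% of all sites) had peaks of the 5 factors in transformed cells, and 2 (2.41% of all sites) in non-transformed cells. The same 2, both at CYR61, were in all 10 lists, beside 2.23% of all sites. Without the shallow NFKB1 list of non-transformed cells, 4 sites were in every other list (6.52% of all sites), 3 at CYR61 and 1 at CTGF. These shares were near the background. Of the 12 complete sites, 8 had 3 or more factors in non-transformed cells, beside 78.7% of all complete sites. At AMOTL2, 2 of the 12 had no peak of any factor in non-transformed cells, beside 1088 of all 36787 complete sites (0.437% of all sites). With a further AMOTL2 site, 3 of the 12 had a peak of at most 1 factor, beside 3485 of the 36787 (1.4% of all sites). At the other end, 36 members were in 1 list only (38.7% of all sites).

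Sites were numbered along each window, and 15 are described one by one. They are those in all 10 lists, the 3 of each locus with the highest summed percentile of −log10 q over the 5 transformed lists, and the strongest STAT3 and NFKB1 site of each locus that was called in transformed cells only. Levels are given as pileup, the count of extended reads that cover the summit, with the value of non-transformed cells first. Pileup is not scaled by depth, so that equal pileups in the JUNB or NFKB1 libraries are a lower level in transformed cells. Levels that are compared between libraries are RPM, the pileup per 1000000 filtered reads. Ratios are of RPM, transformed over non-transformed, and carry an exact binomial (Clopper-Pearson) 95% interval that covers counting error alone. The rule picks sites largely by their strength in transformed cells, and the intervals do not allow for this choice.

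**Figure D2:**
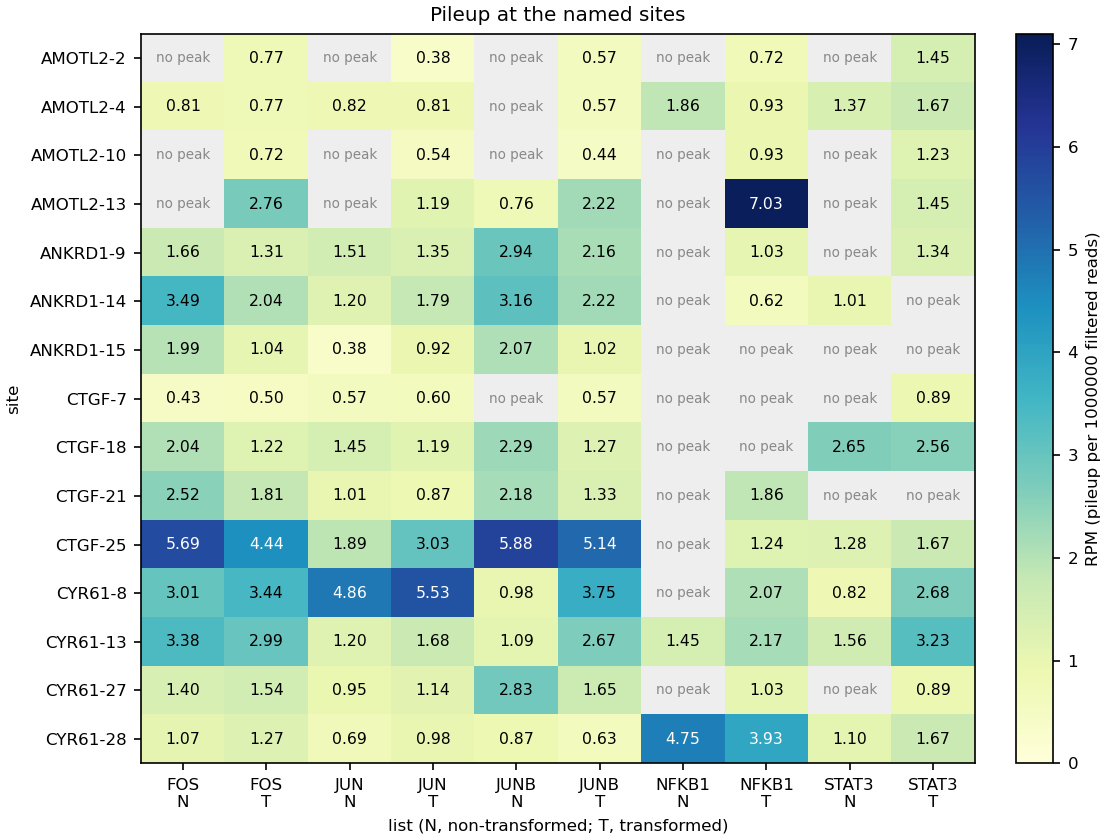
Pileup per 1000000 filtered reads at the 15 named sites (rows) in the 10 lists (columns; N, non-transformed; T, transformed). Grey cells had no peak. The darkest cell is NFKB1 in transformed cells at AMOTL2-13 (7.03), FOS and JUNB are highest at CTGF-25, and JUN at CYR61-8.

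At the CTGF locus, 17 of 25 sites had an AP-1 peak in transformed cells, beside 193515 of all 248897 sites. The strongest site of the locus, CTGF-25 (chr6:132317085-132317716, near the end of the window), had a FOS pileup of 106 before and 98 after transformation. JUNB was 54 and 81 there, JUN was 30 and 56, and STAT3 was 14 and 15. NFKB1 had no peak before and 12 reads after. The FOS peak stood at rank 1041 of 119754 in its list before and 282 of 164605 after, although its level in RPM went from 5.69 to 4.44. JUN was the factor whose interval lay above 1 at this site, with a ratio of 1.60 (1.01 to 2.59). For FOS the ratio was 0.780 (0.586 to 1.04), for STAT3 1.31 (0.588 to 2.92), and for JUNB 0.874 (0.612 to 1.26). On the scale of fold enrichment over the local background the JUNB ratio was 1.21. That scale adds a constant to pileup and background, which weighs more in the shallower library.

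Farther in, a pair of CTGF sites lay 2.70 kb from each other and differed in their inflammatory factors. CTGF-18 (chr6:132301283-132301613) had STAT3 in both states, at 29 and 23 reads, the strongest STAT3 peaks of the locus, and no NFKB1 peak. CTGF-21 (chr6:132303796-132304502) had NFKB1 at 18 reads in transformed cells, the strongest NFKB1 peak of the locus, and no STAT3 peak. Both had all 3 AP-1 subunits in both states. At CTGF-18, FOS was 38 and 27, JUN 23 and 22, and JUNB 21 and 20. At CTGF-21, FOS was 47 and 40, JUN 16 and 16, and JUNB 20 and 21. The 4 strongest summits of transformed cells at CTGF-21 spread over 212 bp, with NFKB1 at 132304181 and FOS at 132303969. All 7 intervals of the ratios at CTGF-18 and CTGF-21 included 1. The site where STAT3 was called in transformed cells only, CTGF-7 (chr6:132259257-132259686), was weak, with 8 STAT3 reads, 11 FOS, 11 JUN and 9 JUNB reads. Before, it had 8 FOS and 9 JUN reads.

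At CYR61, binding was dense and JUN was very strong. CYR61-8 (chr1:86021921-86022285) had a JUN pileup of 77 before and 102 after, rank 22 of 81444 and rank 12 of 127335 in those lists. FOS was 56 and 76. These ratios were 1.14 (0.838 to 1.55) for JUN and 1.14 (0.800 to 1.65) for FOS. The other AP-1 subunit was different. JUNB went from 9 to 59 reads, a ratio of 3.82 (1.88 to 8.76), the highest of the 85 ratios at the 4 loci. STAT3 went from 9 to 24 reads, a ratio of 3.25 (1.46 to 7.95), and NFKB1 from no peak to 20 reads. Of the 3 AP-1 levels in RPM added up, JUN made 54.9% before and 43.5% after, and JUNB 11.1% and 29.5%. Antibodies differ in strength, so that these shares compare states and not subunits.

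The 2 sites in all 10 lists lay 40.3 kb apart. CYR61-13 (chr1:86037146-86037954) had a FOS pileup of 63 and 66, a JUN pileup of 19 and 31, and an NFKB1 pileup of 7 and 21. JUNB went from 10 to 42, a ratio of 2.45 (1.21 to 5.47), and STAT3 from 17 to 29, a ratio of 2.08 (1.10 to 4.03). The STAT3 summit stood at 86037660 before, near NFKB1 at 86037650, and at 86037797 after, near FOS at 86037804. This STAT3 ratio therefore compares peaks at different positions in the site. JUNB and STAT3 thus had intervals above 1 at both CYR61-8 and CYR61-13, and FOS and JUN had intervals that included 1 at both. The JUNB and STAT3 pairs are also those with different replicate letters, and what this adds to the ratios was not tested. CYR61-28 (chr1:86077625-86078009) was the NFKB1 site of the locus in both states, with 23 reads before and 38 after transformation. The former was rank 1174 of 13252. These NFKB1 levels were 4.75 and 3.93 RPM, a ratio of 0.826 (0.480 to 1.45). On the scale of fold enrichment the ratio was 1.36. That scale adds a constant to pileup and background, which weighs more in the shallower library. The part of this constant in the change of direction was not tested. At CYR61-28, FOS was 20 and 28, JUN 11 and 18, JUNB 8 and 10, and STAT3 12 and 15.

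The nearby CYR61-27 (chr1:86072720-86073383), 4.77 kb from CYR61-28, had FOS at 26 and 34, JUN at 15 and 21, and JUNB at 26 and 26. NFKB1 (10 reads) and STAT3 (8 reads) were called in transformed cells only. The 5 strongest summits of transformed cells spread over 363 bp there. A second, lower NFKB1 peak of 7 reads in the same site brought the 5 factors within 57 bp.

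At the ANKRD1 locus, 12 of 16 sites had an AP-1 peak in transformed cells, beside 193515 of all 248897 sites. STAT3 and NFKB1 had 2 sites each there in transformed cells, beside 77271 and 71098 of all sites. CTGF had 3 STAT3 sites among its 25. ANKRD1-9 (chr10:92680936-92681309) was the site with all 5 factors. FOS was 31 and 29, JUN 24 and 25, and JUNB 27 and 34, with ratios of 0.789 (0.459 to 1.35), 0.895 (0.490 to 1.64) and 0.734 (0.430 to 1.26). NFKB1 at 10 reads and STAT3 at 12 reads were called in transformed cells only. The median NFKB1 peak of transformed cells had 9 reads. Among NFKB1 sites called in transformed cells only, 38.4% reached the level of ANKRD1-9. The strongest FOS site, ANKRD1-14 (chr10:92720142-92720523), went from 65 to 45 FOS reads, a ratio of 0.584 (0.390 to 0.867). JUN was 19 and 33 reads, a ratio of 1.49 (0.824 to 2.78). JUNB was 29 and 35 reads but 3.16 and 2.22 RPM, a ratio of 0.703 (0.418 to 1.19). STAT3 had 11 reads in non-transformed cells and no peak in transformed cells, and NFKB1 had 6 reads in transformed cells only. At ANKRD1-15 (chr10:92728413-92728833) FOS went from 37 to 23 reads, a ratio of 0.524 (0.297 to 0.906), with JUN at 6 and 17 (ratio 2.43, 0.916 to 7.54) and JUNB at 19 and 16 (ratio 0.491, 0.236 to 1.01). The JUN summit stood at 92728563 before and 92728677 after, so that this JUN ratio compares peaks at different positions. FOS had a lower RPM in transformed cells at all 6 ANKRD1 sites called in both states, with a median ratio of 0.675. The FOS ratio was above 1 at 3 of 10 such sites at CTGF, 6 of 9 at CYR61 and 1 of 4 at AMOTL2. Its median over all sites called in both states was 0.949.

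The AMOTL2 locus held sites that were listed mainly in transformed cells. AMOTL2-13 (chr3:134097618-134097960) had a JUNB pileup of 7 in non-transformed cells and no peak of the other 4 factors. In transformed cells it had NFKB1 at 68 reads, FOS at 61, JUNB at 35, JUN at 22 and STAT3 at 13. The NFKB1 peak was rank 267 of 73822. Among 59373 sites where NFKB1 was called in transformed cells only, 3 had an RPM at least as high, this one included. For FOS the number was 84 of 61404. The site was named by its strength in transformed cells, so that a high rank there follows in part from the rule. JUN and STAT3 were less unusual, with 3345 of 60212 and 13619 of 47224. In RPM the JUNB ratio was 2.91 (1.28 to 7.77). In the same window of non-transformed cells, FOS peaks were called at 6 reads and JUN peaks at 12 reads. All 5 summits of transformed cells lay within 26 bp.

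AMOTL2-10 (chr3:134093837-134094230), 3.76 kb from AMOTL2-13, and AMOTL2-2 (chr3:134067354-134067717) had no peak in non-transformed cells and all 5 factors in transformed cells. AMOTL2-10 had 16 FOS, 10 JUN, 7 JUNB, 9 NFKB1 and 11 STAT3 reads, and AMOTL2-2 had 17, 7, 9, 7 and 13. The median pileups of the transformed lists were 16, 13, 15, 9 and 11 in the same order. JUN and JUNB were below these medians at both sites, and FOS and STAT3 were not. Among sites where the factor was called in transformed cells only, 95.1% reached the JUN level of AMOTL2-2 and 17.7% its FOS level. AMOTL2-4 (chr3:134070785-134071432) had 4 factors in both states, with FOS at 15 and 17, JUN at 13 and 15, NFKB1 at 9 and 9, and STAT3 at 15 and 15. The ratios in RPM were 0.956 (0.449 to 2.05) for FOS, 0.991 (0.440 to 2.26) for JUN and 1.22 (0.555 to 2.68) for STAT3. The equal NFKB1 pileups were 1.86 and 0.930 RPM, with an interval of the ratio from 0.176 to 1.42. JUNB had a peak of 9 reads in transformed cells only. The strongest STAT3 peak of the locus in transformed cells was at AMOTL2-5 (chr3:134076762-134077128), a site named after its values were seen, with 12 and 19 reads.

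The other 72 sites are given by their range. Their 171 peak levels ran from 5 to 46 reads, with a median of 9, and 36 of these sites were in 1 list only. Some were stronger than named sites: at CTGF-15 (chr6:132275867-132276204), named after its values were seen, FOS was 36 and 46 reads.

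FOS had the most sites, 37 before and 50 after transformation. Of the 58 sites in either state, 21 (36.2%) were called in transformed cells only, beside 34.5% of all FOS sites, and 8 (13.8%) in non-transformed cells only, beside 10.7%. A stricter count keeps those of transformed cells whose level reached the median level of the non-transformed list. It held 1 member, AMOTL2-13, beside 4.54% of all sites. Among the 29 sites called in both states, 0 were at least 2-fold higher in transformed cells (8.54% of all sites) and 1 was at least 2-fold lower (5.99%). The median ratio was 0.896 at the members and 0.949 over all sites.

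JUN had 36 and 46 sites, and CTGF was the one locus where it had fewer in transformed cells, 13 against 16. Of 56 sites, 20 (35.7%) were called in transformed cells only, beside 43.2% of all JUN sites, and 10 (17.9%) in non-transformed cells only, beside 11.6%. The stricter count was 3 (13.1% of all sites). Of the 26 sites in both states, 1 was at least 2-fold higher (14.8%) and 2 were at least 2-fold lower (0.807%). The higher site was ANKRD1-15, where the JUN summits of the states stood at different positions. The median ratio was 1.02, beside 1.29 over all sites. The lowest was 0.255 (0.0999 to 0.576), where JUN went from 27 to 8 reads at CYR61-18, a site picked out by its value.

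JUNB had 27 and 33 sites. The 14 sites called in transformed cells only were 34.1% of 41, beside 37.3% of all JUNB sites, and the 8 called in non-transformed cells only were 19.5%, beside 15.8%. None reached the stricter count, 0 of 41, beside 5.19% of all sites. Of the 19 sites in both states, 4 were at least 2-fold higher (7.74%) and 2 at least 2-fold lower (7.02%). Its ratios ran from 0.466 to 3.82, and those of JUN from 0.255 to 2.43. The median was 0.734, beside 0.964 over all sites, and 0.978 at the members on the scale of fold enrichment. The 4 higher sites were CYR61-8, CYR61-13, AMOTL2-13 and, named after its value was seen, CTGF-2 (chr6:132235496-132235828, 8 and 34 reads).

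NFKB1 had 3 sites before and 20 after. All 3 were also in the later list, and 17 of 20 (85%) were called in transformed cells only, beside 82% of all NFKB1 sites, a share near that of the genome. The non-transformed NFKB1 library had the fewest reads of the 10. In non-transformed cells only there were 0, beside 1.79%. The stricter count was 4 (9.69% of all sites). None of the 3 sites in both states passed 2-fold in either direction on this scale, beside 9.26% of all sites higher and 5.92% lower. At CTGF and ANKRD1 NFKB1 had no peak before, and 6 and 2 sites after.

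STAT3 had 13 and 20 sites, although its library of transformed cells was the shallower one. Of the 25 sites, 12 (48%) were called in transformed cells only, beside 53% of all STAT3 sites, and 5 (20%) in non-transformed cells only, beside 13.2%. The stricter count was 5 (28.7% of all sites), 4 of them at AMOTL2 and 1 at ANKRD1. Of the 8 sites in both states, 2 were at least 2-fold higher (39.1%), both at CYR61, and 0 were at least 2-fold lower (0.978%). At 1 of the higher sites, CYR61-13, the STAT3 summits of the states stood at different positions. The ratio was above 1 at 7 of the 8, with a median of 1.41, beside 1.71 over all sites. The STAT3 libraries also differed in the fragment length used to extend reads, 150 bp before and 119 bp after, and pileup grows with that length. CTGF had 3 STAT3 sites in each state.

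**Figure D3:**
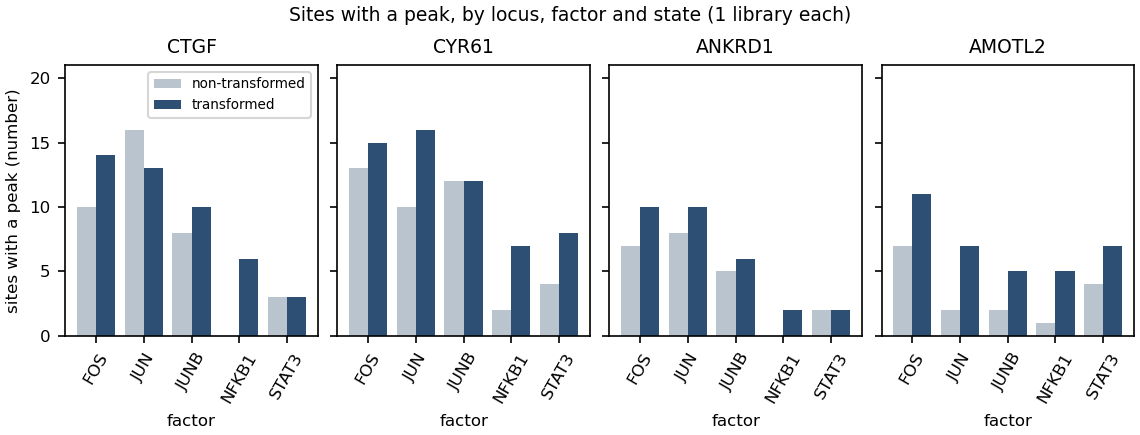
Number of sites with a peak (vertical axis) by factor at each locus, in non-transformed (grey) and transformed (blue) cells, 1 library per bar. NFKB1 goes from 0, 2, 0 and 1 sites to 6, 7, 2 and 5 at CTGF, CYR61, ANKRD1 and AMOTL2, and JUN at CTGF goes from 16 to 13.

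**Figure D4:**
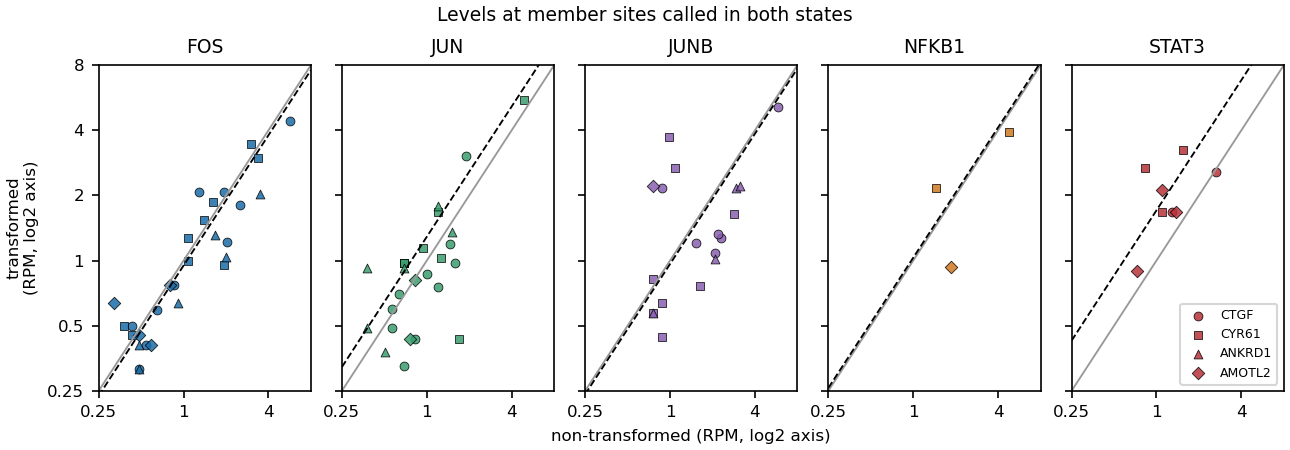
Pileup per 1000000 filtered reads in non-transformed (horizontal) and transformed cells (vertical), both on log2 axes, at member sites called in both states. The grey line marks equal levels and the dashed line the median ratio over all sites of that factor. The 4 JUNB points farthest above the lines are CYR61-8, AMOTL2-13, CTGF-2 and CYR61-13.

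Counted over all 5 factors, 85 ratios could be formed at the members, and in 74 the interval included 1. For JUNB 4 of 19 intervals lay above 1 (7.05% of all JUNB sites) and 0 below (6.66%). For STAT3 2 of 8 lay above 1, beside 39% of all STAT3 sites, and 0 below (0.572%). JUN had 1 of 26 above (14.9%) and 1 below (0.396%). FOS had 0 of 29 above (9.6%) and 3 below (12.6%), and NFKB1 had 0 of 3 above (6.41%) and below (4.67%). Some of the intervals at the members would exclude 1 by counting error alone, since each is a 95% interval.

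STAT3 and NFKB1 mostly shared sites with AP-1, at shares near those over the genome. In transformed cells 19 of 20 STAT3 sites also had a peak of FOS, JUN or JUNB (95%, beside 88.1% of all STAT3 sites), and 18 of 20 NFKB1 sites did (90%, beside 86.2%). NFKB1 and STAT3 were together at 12 sites, 60% of the NFKB1 sites, beside 62.9% over the genome. At AMOTL2 all 5 NFKB1 sites had STAT3, and at CTGF 1 of 6 did. Of the 62 sites with AP-1 in transformed cells, 26 had all 3 subunits (41.9%, beside 38.8% of all AP-1 sites).

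AP-1 peaks were often listed at these sites before transformation. Of the 12 sites where STAT3 was called in transformed cells only, 8 had an AP-1 peak in non-transformed cells (66.7%, beside 62.7% over the genome). For NFKB1 the number was 14 of 17 (82.4%, beside 73.6%). AMOTL2 stood apart in its counts, with prior AP-1 at 1 of 4 such STAT3 sites and 2 of 4 such NFKB1 sites. The numbers were 1 of 1 and 6 of 6 at CTGF, 4 of 5 and 4 of 5 at CYR61, and 2 of 2 and 2 of 2 at ANKRD1. These counts are too small for more than a description.

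Summit distances were taken between the strongest peaks of a shared site. In transformed cells the median distance between FOS and JUN summits was 12.5 bp over 36 sites (18 bp over all sites), that between FOS and JUNB 21 bp over 28 sites (17 bp), and that between JUN and JUNB 16 bp over 29 sites (18 bp). STAT3 summits lay a median of 20 bp from those of FOS over 19 sites (25 bp), and NFKB1 summits 33.5 bp over 18 sites (27 bp). At 5 of the 12 complete sites, all of them named, the 5 summits lay within 50 bp. The spread was 26 bp at AMOTL2-13, 31 bp at CYR61-8 and at CYR61-28, 35 bp at CTGF-25 and 48 bp at ANKRD1-9. At the 2 complete sites that are not named it was 54 and 66 bp. At the other 5 named complete sites the spread was 63 bp at AMOTL2-2, 71 bp at AMOTL2-4, 93 bp at AMOTL2-10 and 143 bp at CYR61-13. At CYR61-27 it was 363 bp with the stronger NFKB1 peak. Without NFKB1 the spread was 7 bp at CYR61-13, 8 bp at AMOTL2-4, 20 bp at AMOTL2-2, 53 bp at AMOTL2-10 and 57 bp at CYR61-27. In non-transformed cells few sites could be measured for NFKB1. Its summits lay within 50 bp of those of FOS, JUN and STAT3 at 1 of 3 sites each. The medians were 62, 89 and 64 bp, beside 37, 35 and 42 bp over all sites. JUNB and STAT3 summits lay within 50 bp at 3 of 7 sites, with a median of 53 bp (39 bp over all sites).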

How the data were processed

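The data were 10 ChIP-seq peak lists, 1 per factor and state, assigned from the sample labels. The submitters' processing notes name Bowtie, MACS2 and hg19. The list headers give MACS 2.0.10.20131216, reads of 36 bp, no control library, at most 1 read kept per position and peaks kept to a q-value of 0.05. In the deposited lists pileup is a signal that the authors did not scale by depth, fold enrichment is a ratio of pileup to the local background, and significance is −log10 of each peak's p-value and, in its own column, its q-value.

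Peaks on chromosomes 1 to 22 and X were used. Pileup was divided by the filtered reads of the headers. A site took the highest peak of each list, so that a ratio can compare peaks at different positions within the site. "Called" means listed by the authors or, for ratios, past 2-fold. With 1 sample a group, no test was run. Background shares are over all sites, and tiles are windows of the genome with at least 1 peak. The site code was tested on simulated data. Python 3.11.15, numpy 2.4.6, pandas 2.3.3, scipy 1.17.1 and matplotlib 3.10.9 were used. The loci, the rule for named sites, and the motifs were chosen with earlier results of these data known. An annotation or genome of hg19 was not used here: 14 chromosomes had peaks past the GRCh38 ends, so sites have no distances to genes, the genes were not placed in the windows, and other YAP/TAZ genes were not analysed here.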

Additional observations from a re-analysis of the deposited data

How the results depend on the processing

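The counts depend on the threshold and the levels on the scale. Windows of 50 bp left all 30 values within 1.5 times, or within their spread, and whole peaks all 21. No paired analysis was possible because each group has 1 sample. No replicate could be left out either. Orders below are CTGF, CYR61, ANKRD1 and AMOTL2 for sites, and FOS, JUN, JUNB, NFKB1 and STAT3 for factors.

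With −log10 q at or above 9.41, the median over all lists, sites numbered 9, 10, 6 and 8 (33 in all), complete sites 4, sites of non-transformed cells 19, 14, 10, 1 and 6, of transformed cells 22, 21, 16, 8 and 12, and sites called in transformed cells only 4, 9, 7, 7 and 7. With at least 2 RPM these were 6, 4, 3 and 2 (15), 1, then 6, 1, 8, 1 and 1, then 7, 2, 7, 4 and 4, and 3, 1, 4, 3 and 3. In the central 50% of each window they were 13, 19, 5 and 10 (47), 6, then 19, 18, 13, 1 and 4, then 27, 23, 15, 10 and 13, and 13, 10, 7 and 9 for the first 4 factors. In every setting NFKB1 and STAT3 had more sites in transformed cells, and JUNB had fewer at 2 RPM.

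Divided by the median over all sites, the ratios were 0.792 for JUN and 0.829 for STAT3, so both turned from above 1 to below it. On fold enrichment the median ratios were 0.985, 1.13, 0.978, 1.36 and 1.35, and that of NFKB1 turned from below 1 to above it. The part of the constant added in fold enrichment in this turn was not tested. The stricter count by level, chosen after seeing the data, gave 1, 3, 0, 4 and 5.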
